A study of Mus musculus with 2 samples.

Results

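The genes described here are the colony-stimulating factors and their receptors. They comprise the ligands Csf1 (M-CSF), Csf2 (GM-CSF) and Csf3 (G-CSF) and the receptor chains Csf1r, Csf2ra, Csf2rb, Csf2rb2 and Csf3r. The members were taken by gene symbol from the feature list shared by both libraries and make up 8 of its 32285 features. Csf1r binds M-CSF. The GM-CSF receptor pairs Csf2ra, which binds the ligand, with Csf2rb, a signaling chain shared with the receptors for IL-3 and IL-5. Csf2rb2 is a second, mouse-specific beta chain that serves IL-3, and Csf3r binds G-CSF. Through JAK-STAT or tyrosine kinase signaling, these ligands drive the growth, survival and maturation of macrophages, dendritic cells (DCs) and neutrophils. In tumors they are known from stromal, endothelial, immune and cancer cells.

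The cells came from subcutaneous tumors of MC38, a mouse colon adenocarcinoma line, in C57BL/6 mice aged 6 to 8 weeks. The paper used males and females for its MC38 models and does not state which sexes were pooled here. MSA-2 is a small molecule that activates STING, a sensor pathway for cytosolic DNA. One group received MSA-2 into the tumor at 3-day intervals for 3 doses, and the control, labelled untreated, received saline with 10% DMSO by the same route and schedule. Tumors of 3 mice were pooled per group, the methods place collection on day 7, and the cells are described as sorted, with no gate named. Each group is therefore 1 library made with 3′ chemistry, so there is no spread between replicates, no test and no p-value. All intervals are 95% intervals that cover counting error only.

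The untreated library held 198135335 unique molecular identifiers (UMIs, 1 per captured RNA molecule), and the MSA-2 library held 204387165. The number of barcodes in each file equals the cell number the methods give. The methods call these immune cells, whereas the marker gates below also hold tumor-like, fibroblast and endothelial cells. Barcodes with 500 or more genes and no more than 20% of UMIs from mitochondrial genes numbered 14039 and 13963. After 705 and 617 called doublets were removed, 13334 untreated cells and 13346 MSA-2 cells remained, with medians of 8291 and 9223 UMIs. The libraries shared 53 barcodes, of which 39 were kept in both.

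Cells were placed into classes by scores of marker genes that include no member. The untreated and MSA-2 libraries held 6577 and 7001 tumor-gate cells, 206 and 633 fibroblast, 62 and 75 endothelial, 31 and 2602 neutrophil and 298 and 620 Ly6c2 monocyte cells. They held 3642 and 1202 macrophage cells, 243 and 14 DCs, 1069 and 122 T cells and 221 and 112 NK cells. A further 129 and 111 cells scored between macrophage and monocyte, and 816 and 824 cells were unassigned. The tumor gate rested on Gng11 (1321 and 2086 CPM, counts scaled to the total UMIs of the gate), Ccn1 (684 and 324), Anxa1 (1009 and 1164), Cdkn2a (59.4 and 100.1) and Tpm2 (347 and 228). The epithelial genes Krt7, Krt8, Krt18, Krt19, Epcam, Cldn7, Sfn and Perp reached at most 2.33 CPM there, so the class is tumor-like by the first 5 genes alone.

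The gates are ranges of a score, and 24.5% of untreated and 21.1% of MSA-2 cells in the Ly6c2 monocyte gate lay near its boundary. The corresponding values were 2.48% and 2.70% for tumor, 4.37% and 6.32% for fibroblast, 4.39% and 9.48% for macrophage and 6.45% and 3.11% for neutrophil cells. Fibroblast markers had a median of 1784 CPM (untreated) and 2363 CPM (MSA-2) in tumor-gate cells, against 49064 and 27457 CPM in the fibroblast gate. Neutrophil markers had a median of 0 CPM (untreated) and 424 CPM (MSA-2) in tumor-gate cells, against 28384 and 93658 CPM in the neutrophil gate.

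Different clusters held most of some gates in the 2 libraries. Untreated tumor-gate cells lay mainly in clusters 3, 2, 1, 7 and 0, and MSA-2 tumor-gate cells in clusters 18, 11, 12, 19 and 24. Untreated macrophages lay in clusters 8 (51.3%) and 6 (40.8%), and MSA-2 macrophages in clusters 16 (71.0%) and 17 (21.5%). The Ly6c2 monocyte gate was mostly cluster 6 in the untreated and cluster 16 in the MSA-2 library, whereas cluster 15 held 95.6% and 98.4% of the fibroblast gate. Clusters 0, 12, 27 and 16 had more markers of another of these classes than of their own among their 10 leading genes. Plasmacytoid DCs were not among the classes counted. Their markers Ly6d, Ccr9 and Siglech were among the leading genes of cluster 4, which was named macrophage. Values for single clusters are therefore given for some genes of the tumor, monocyte and macrophage gates.

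Scaling moved the gates to different extents. With TMM factors in place of total UMIs, every log2 ratio shifted by 0.24 in the fibroblast, 0.17 in the endothelial, 0.30 in the Ly6c2 monocyte and 1.12 in the neutrophil gate. The shift was 0.11 for cells between macrophage and monocyte, -0.36 for DCs, -0.07 in the tumor and 0.05 in the macrophage gate. Ratios are given for total UMIs, with the TMM value beside those of gates that shifted by more than 0.1.

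Over all cells, Csf3 was at 1.505 CPM in the untreated and 45.9 CPM in the MSA-2 library, a log2 ratio of 4.93 (4.76 to 5.11). Csf2 was at 0.665 and 6.08 CPM, a log2 ratio of 3.19 (2.92 to 3.47), and Csf1 at 71.9 and 131 CPM, a log2 ratio of 0.87 (0.84 to 0.90). All 3 ligands were higher in the MSA-2 library, by less than 2-fold for Csf1. Csf1r was at 38.5 and 10.5 CPM (log2 ratio -1.88), Csf2rb2 at 4.78 and 2.14 CPM (-1.16) and Csf2rb at 19.8 and 9.97 CPM (-0.99). Csf2ra was at 15.8 and 11.7 CPM (-0.44), and Csf3r at 6.46 and 12.4 CPM (0.94). The 4 other receptor chains were thus lower in the MSA-2 library, and Csf3r was higher. The log2 ratio of Csf3r was -0.05 (-0.18 to 0.07) when cells needed 1000 or more genes and no more than 10% of UMIs from mitochondrial genes, and which of these limits mattered was not tested.

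Past 2-fold were Csf2 and Csf3 in the higher and Csf1r and Csf2rb2 in the lower direction, that is 2 of 8 members each way. Csf2rb was past 2-fold lower too with TMM factors (-1.004) and under the stricter cell filter (-1.48), which makes 3 of 8 lower. Among the 21040 genes with at least 10 UMIs, 12.5% were at least 2-fold higher and 9.16% at least 2-fold lower in the MSA-2 library.

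**Figure D1:**
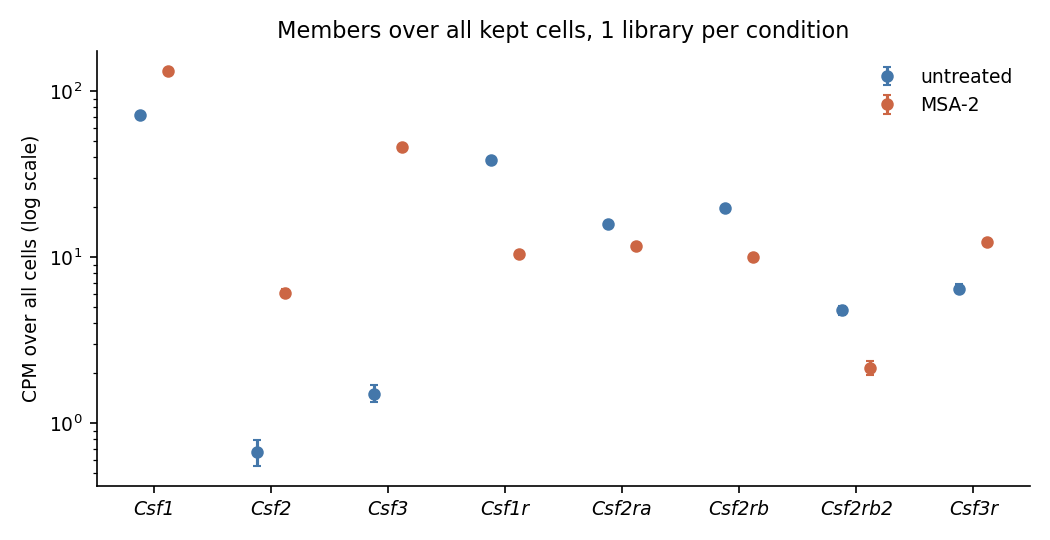
CPM of the 8 members summed over all kept cells (log axis), 1 point per library, with exact 95% Poisson intervals for counting error. Csf2 and Csf3 lie higher in MSA-2 (6.08 and 45.9 CPM) than in untreated cells (0.665 and 1.505 CPM), and Csf1r lies lower.

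Csf1, the ligand that sustains macrophages, was detected mainly in the tumor gate, which held 86.2% of its UMIs in untreated cells and 81.3% in MSA-2 cells. Of the UMIs of all genes the tumor gate held 80.1% and 85.2%. The Csf1 level there was 77.4 CPM (75.9 to 78.8) and 125 CPM (124 to 127), a log2 ratio of 0.70 (0.66 to 0.73). The 5 largest clusters of the tumor gate ranged from 62.0 to 91.8 CPM in the untreated and from 97.2 to 183 CPM in the MSA-2 library. These ranges did not overlap, but they came from different clusters. Clusters 0, 1, 18 and 19 had at least 20 gate cells in each library. Csf1 was at 65.2 and 82.8 CPM in cluster 0, 83.1 and 108 CPM in cluster 1 and 96.5 and 123 CPM in cluster 18. The intervals of the libraries overlapped in each of these. In cluster 19 Csf1 was at 129 CPM (109 to 152) and 183 CPM (178 to 189).

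In CPM, Csf1 was higher in the fibroblast than in the tumor gate of both libraries, at 344 CPM (321 to 368) and 367 CPM (354 to 379). The log2 ratio of 0.09 (-0.02 to 0.20) was within counting error. It was 0.33 (0.22 to 0.44) with TMM factors and 0.31 (0.20 to 0.42) with UMIs per cell, both beyond counting error. With classes from clusters it was -0.08 (-0.19 to 0.03). Fibroblast cells held 6.57% of Csf1 UMIs in untreated cells and 13.2% in MSA-2 cells, and their share of all cells was 1.54% and 4.74%. The fibroblast gate thus took a larger part of Csf1 after MSA-2, with little difference in its level when scaled by total UMIs.

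Endothelial cells had 51.7 CPM of Csf1 in the untreated and 168 CPM in the MSA-2 library, a log2 ratio of 1.70 (1.13 to 2.32), or 1.87 with TMM factors. T cells went the other way, with 75.8 and 37.6 CPM (-1.01, -1.69 to -0.40), mostly from CD8 T cells at 91.2 and 42.2 CPM. The macrophage gate was at 13.6 and 30.7 CPM and the Ly6c2 monocyte gate at 15.1 and 35.2 CPM, with log2 ratios of 1.17 and 1.22 (1.52 with TMM factors for the monocytes). NK cells were at 9.55 CPM (4.94 to 16.7) and 18.0 CPM (10.1 to 29.7), and their intervals overlapped those of the macrophage gate (12.1 to 15.3 and 26.4 to 35.4) and of the Ly6c2 monocyte gate (8.63 to 24.5 and 28.0 to 43.7) in both libraries. In the neutrophil gate Csf1 was at 603 CPM (387 to 898) in 31 untreated cells, from 24 UMIs, and at 94.2 CPM in 2602 MSA-2 cells, a log2 ratio of -2.68, or -1.56 with TMM factors. Across classes of the MSA-2 library with at least 20 cells, fibroblast, endothelial and tumor cells were highest, and their intervals did not overlap.

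The start of the Csf1 gene is shown because Csf1 is the ligand whose matched promoter sequence ends at the annotated gene start. RefSeq promoter sequences on GRCm38.p6 matched 5 of the 8 members. The 250 bases upstream of Csf1, chr3:107760470-107760719 on the minus strand, are printed 5′ to 3′, with 2 overlapping matches to the NF-kB motif in capitals.
Csf1: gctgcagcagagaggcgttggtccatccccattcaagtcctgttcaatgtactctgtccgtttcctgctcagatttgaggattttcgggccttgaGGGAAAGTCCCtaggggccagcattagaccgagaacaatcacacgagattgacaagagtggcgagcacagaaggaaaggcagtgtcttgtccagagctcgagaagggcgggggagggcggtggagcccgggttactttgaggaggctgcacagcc
The motif was searched on both strands as GGGA, any 3 bases and TCC, and 3.86% of 32851 promoter windows of this length hold it. Among the members it was also found for Csf3r. The STAT motif TTCNNNGAA, held by 7.02% of windows, was found for Csf2rb2, while the IRF motif (GAAA on either side of any 2 bases, 2.98% of windows) and the AP-1 motif TGANTCA (6.75%) were in none of the 5. These are matches of letters, and binding was not measured.

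Csf2 encodes GM-CSF, which supports granulocytes, macrophages and DCs. It had few UMIs in the untreated library, where T cells held 31.1% of them, fibroblast cells 36.9%, tumor-gate cells 15.6% and NK cells 9.02%. In the MSA-2 library the tumor gate held 54.3%, the fibroblast gate 37.7% and T cells 0.259%, against 85.2%, 4.71% and 0.321% of the UMIs of all genes. The leading non-stromal source in the untreated library therefore held almost none of the Csf2 of the MSA-2 library, where T cells were 0.914% of cells against 8.02%.

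The fibroblast gate had the highest Csf2 level in both libraries among classes with at least 20 cells in each, at 17.9 CPM (13.03 to 23.9) and 48.7 CPM (44.2 to 53.5). The log2 ratio was 1.45 (1.001 to 1.92), or 1.68 with TMM factors. In the tumor gate Csf2 was at 0.129 CPM (0.0778 to 0.202) and 3.88 CPM (3.58 to 4.19), a log2 ratio of 4.91 (4.25 to 5.65). Macrophages, which had few Csf2 UMIs, were at 0.0475 CPM, from 1 UMI, and 1.17 CPM (0.471 to 2.42), a log2 ratio of 4.63 (1.66 to 10.12), and MSA-2 neutrophils were at 1.38 CPM (0.556 to 2.85). T cells were at 9.50 CPM (6.72 to 13.04), from 38 UMIs in 12 cells, and at 4.90 CPM (1.01 to 14.3), from 3 UMIs in 2 cells. NK cells were at 8.76 and 6.003 CPM. The intervals of the 2 libraries overlapped for T and NK cells, so a difference in their level was not detectable at this depth.

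Csf2 was unevenly spread over the tumor gate. In the MSA-2 library 3.83% of tumor-gate cells had a Csf2 UMI, and 64 cells with 3 or more UMIs held 63.3% of the gate's Csf2. After each cell was thinned to 1000 UMIs, the share was 0.229%, against 0.0153% in untreated tumor-gate cells. Among large clusters, Csf2 was at 7.19 CPM in cluster 18 and 5.41 CPM in cluster 19, and between 1.15 and 1.48 CPM in clusters 11, 12 and 24, at the level of MSA-2 macrophages and neutrophils. Cluster 27, with neutrophil genes among its leading genes, was at 10.2 CPM (7.003 to 14.5), from 32 UMIs. The part of free RNA in the Csf2 of the tumor gate was not tested. The Csf2-rich tumor-gate cells had a median of 32690 UMIs, against 19716 UMIs in cells without Csf2. Their medians were lower for fibroblast markers (1291 and 2402 CPM) and for tumor markers (2111 and 4099 CPM).

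Csf3 encodes G-CSF, the main factor for neutrophil production. Its UMIs in the untreated library came from the fibroblast (50.4%), endothelial (22.8%), macrophage (14.9%) and tumor (9.42%) gates. In the MSA-2 library the tumor gate held 40.9%, the fibroblast gate 37.7%, the neutrophil gate 9.27% and the endothelial gate 5.13%. The order of these shares thus changed, and the tumor gate came first in the MSA-2 library, where it held 85.2% of the UMIs of all genes.

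In the fibroblast gate Csf3 was at 55.2 CPM (46.4 to 65.2) and 367 CPM (355 to 380), a log2 ratio of 2.73 (2.49 to 2.99), or 2.97 with TMM factors. Endothelial cells were at 109 CPM (83.4 to 139) and 543 CPM (494 to 595), a log2 ratio of 2.32 (1.94 to 2.73), or 2.49 with TMM factors. In the tumor gate Csf3 was at 0.177 CPM (0.116 to 0.259) and 22.0 CPM (21.3 to 22.8), a log2 ratio of 6.96 (6.41 to 7.58). The tumor gate had the largest ratio of these 3 from the lowest level, and the difference between the 3 ratios was not tested.

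Single cells weighed on the endothelial and fibroblast levels of Csf3. In endothelial cells 1 cell held 30 of 63 untreated and another 172 of 448 MSA-2 UMIs, and among fibroblasts 1 cell held 62 of 139 untreated UMIs. Without the cell with the most Csf3 in each library, chosen after the data were seen, endothelial cells were at 57.7 CPM (39.7 to 81.0) and 349 CPM (309 to 393), and fibroblasts at 30.7 CPM (24.3 to 38.4) and 350 CPM (338 to 363). No order of these gates is therefore read. The log2 ratio was then 2.60 in endothelial cells and 3.51 (3.18 to 3.86) in fibroblasts. Both are for total UMIs, and the TMM shifts of these gates (0.17 and 0.24) would add to them.

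**Figure D2:**
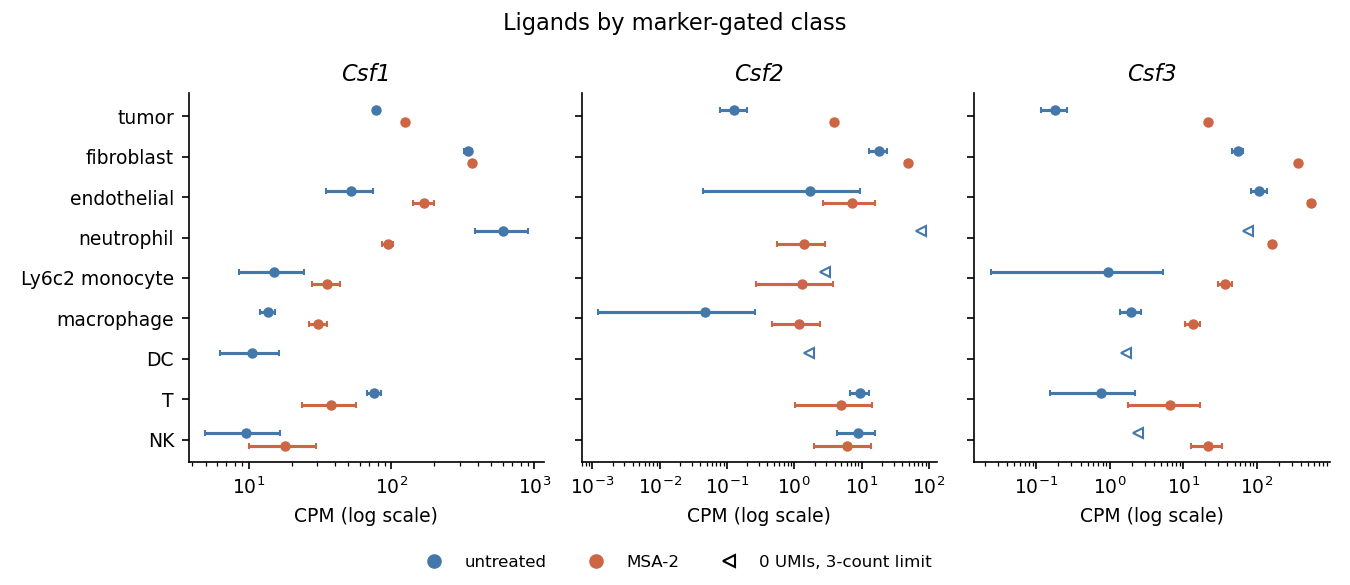
CPM of Csf1, Csf2 and Csf3 (log axes) in the drawn classes with at least 20 cells in the library, with exact 95% Poisson intervals for counting error. Pericytes, mast cells, unassigned cells and cells between macrophage and monocyte are not drawn. Open triangles mark classes with 0 UMIs at the level that 3 UMIs would give. Csf3 in MSA-2 cells is at 543 CPM in the endothelial, 367 CPM in the fibroblast and 22.0 CPM in the tumor gate.

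Csf3 was found in a larger share of fibroblasts than of tumor-gate cells, though in fewer cells (297 and 1396 in the MSA-2 library). In the MSA-2 library 46.9% of fibroblast cells had a Csf3 UMI and 7.58% had 20 or more, with a maximum of 154. The tenth of fibroblast cells with the most Csf3 held 62.8% of its UMIs. Among endothelial cells 45.3% had a UMI and the maximum was 172. In the tumor gate 19.9% had a UMI, and 211 cells with 3 or more held 62.0% of the gate's Csf3. In the untreated library, 6.80% of fibroblast and 0.365% of tumor-gate cells had a Csf3 UMI.

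T and NK cells, which are not known as Csf3 sources, were taken for the level of free RNA. T cells had 0.00281 Csf3 UMIs per cell in untreated cells and 0.0328 in MSA-2 cells, at median depths of 3191 and 4029 UMIs, and 3.28% of MSA-2 T cells had a UMI. NK cells of the MSA-2 library had 0.161 per cell, from 18 UMIs at a median depth of 6224 UMIs. Tumor-gate cells had 0.00395 and 0.510 UMIs per cell, at medians of 20177 and 20039 UMIs, and fibroblast cells 0.675 and 5.20. In CPM the MSA-2 tumor gate (22.0) could not be told apart from NK cells (21.6, 12.8 to 34.2) and was above T cells (6.54, 1.78 to 16.7). After thinning to 1000 UMIs, 20.3% of fibroblast, 15.1% of endothelial, 8.26% of neutrophil, 2.29% of tumor-gate and 1.65% of T cells of the MSA-2 library had a Csf3 UMI. Thinning kept the 13100 untreated and 13047 MSA-2 cells with enough UMIs and left out the rest. The thinned share of tumor-gate cells lay close to that of T cells, whose value came from 2 of 121 cells. Without thinning, the most Csf3 UMIs in 1 cell of the MSA-2 library were 74 in the tumor gate and 1 in T cells. In the tumor gate 28 cells had 20 or more, and T cells were fewer and shallower. The part of free RNA in the Csf3 of the tumor gate was not tested.

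The ratio of Csf3 to Col1a1 UMIs was taken in each class, from 4 and 44 UMIs in MSA-2 T cells and 18 and 49 in MSA-2 NK cells. Col1a1 encodes a collagen chain made by fibroblasts. In MSA-2 cells there were 0.0466 Csf3 UMIs per Col1a1 UMI in the fibroblast, 0.0909 in the T, 0.176 in the macrophage, 0.308 in the tumor, 0.367 in the NK and 0.491 in the Ly6c2 monocyte gate. The ratio was 1.41 in the neutrophil and 12.8 in the endothelial gate. Tumor-gate cells with 3 or more Csf3 UMIs had a fibroblast marker median of 2811 CPM, those with 5 or more 3190 CPM, and those without Csf3 2387 CPM. The part of fibroblast RNA in their Csf3 was not tested.

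In the neutrophil gate Csf3 was at 0 CPM in 31 untreated cells, which allows up to 75.4 CPM, and at 159.9 CPM (149 to 171) in the MSA-2 library. Of MSA-2 neutrophil cells 11.6% had a Csf3 UMI, and 97 cells with 3 or more UMIs held 67.8% of the gate's Csf3. Their median for fibroblast markers was 583 CPM, against 636 CPM in neutrophils without Csf3, and their median depth was 2127 UMIs against 1796. In the 49 cells with 5 or more UMIs the marker median was 715 CPM, so its direction depended on the number of UMIs asked for. The Ly6c2 monocyte gate was at 0.943 CPM, from 1 UMI, and 37.4 CPM, a log2 ratio of 5.31 (2.79 to 10.63), or 5.61 with TMM factors, and the macrophage gate at 1.95 and 13.4 CPM. In the MSA-2 Ly6c2 monocyte gate 1 cell held 31 of 86 UMIs, and without it the level was 23.97 CPM (18.1 to 31.2). NK cells were at 0 CPM, which allows up to 2.39 CPM, and 21.6 CPM.

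**Figure D3:**
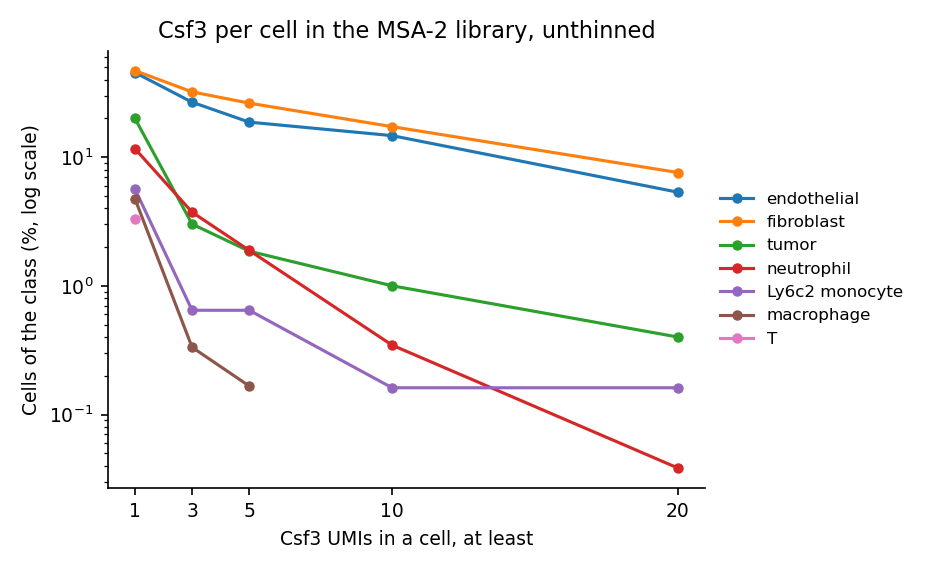
Percent of cells of a class (log axis) with at least 1, 3, 5, 10 or 20 Csf3 UMIs in the MSA-2 library, without thinning, 1 line per class; classes at 0% are not drawn at that point. Fibroblast and endothelial cells start at 46.9% and 45.3% and fall slowly, whereas tumor-gate cells start at 19.9%.

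Among large clusters of the MSA-2 tumor gate, Csf3 ranged from 10.7 CPM in cluster 24 to 52.6 CPM in cluster 12, with 28.2 CPM in cluster 19. The 5 largest untreated tumor clusters lay between 0.101 and 0.291 CPM. Csf3 was thus higher in each of these MSA-2 clusters than in each untreated one. Cluster 12 has the fibroblast gene Dcn among its leading genes, and cluster 27, with 100 gate cells and the neutrophil genes G0s2, Hdc and S100a9 among its leading genes, was at 22.1 CPM.

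Cells with both Csf2 and Csf3 were counted. In the MSA-2 library 70.4% of fibroblast cells with Csf2 also had Csf3, against 42.6% of those without Csf2. In the tumor gate the shares were 33.2% and 19.4%. Cells with a UMI of any gene tend to be deeper, and of 627 fibroblast cells after thinning 26 had Csf2, 127 had Csf3 and 10 had both (1.59%, 0.767% to 2.91%). Whether this is more than 2 unrelated genes would give was not tested. Csf2 lies 15635 bases from Il3, its neighbor on chromosome 11, and Il3 had 1 UMI in untreated cells and 0 in MSA-2 cells.

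Csf1r, the tyrosine kinase receptor for M-CSF and IL-34, was mostly in the macrophage gate, which held 78.2% of its UMIs in untreated cells and 53.8% in MSA-2 cells. Its level there was 262 CPM (255 to 269) and 179.9 CPM (169 to 191), a log2 ratio of -0.54 (-0.64 to -0.45). In the Ly6c2 monocyte gate it was at 276 CPM (246 to 310) and 98.2 CPM (85.8 to 112), a log2 ratio of -1.49 (-1.75 to -1.24), or -1.20 with TMM factors. Csf1r was thus lower in MSA-2 cells of both gates. The levels of the macrophage and Ly6c2 monocyte gates overlapped in the untreated library and did not in the MSA-2 library.

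Clusters gave the same direction for Csf1r. In cluster 8 of the macrophage gate, which both libraries held, Csf1r was at 259 CPM (250 to 269) in untreated and 208 CPM (161 to 265) in 63 MSA-2 cells, and these intervals overlapped. In cluster 17 it was at 431 CPM (365 to 505) and 157 CPM (138 to 177). Cluster 6 of the untreated macrophages was at 265 CPM and cluster 16 of the MSA-2 macrophages at 188 CPM. Within the Ly6c2 monocyte gate, cluster 6 of the untreated library was at 289 CPM and cluster 16 of the MSA-2 library at 97.6 CPM.

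Macrophages also made up a smaller share of the MSA-2 cells, at 9.01% against 27.3%. The lower Csf1r over all cells thus went with fewer macrophage-gate cells and with a lower level within the gate. The untreated DC gate had 26.5 CPM of Csf1r, with 51.9 CPM in the cDC2 subset, and 14 DCs in the MSA-2 library were too few to compare. Tumor-gate cells were at 5.48 and 2.11 CPM and T cells at 6.50 and 3.27 CPM. The tumor-gate level was not above that of T cells, which are not known to carry the receptor.

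After thinning, 21.2% of untreated and 15.3% of MSA-2 macrophages had a Csf1r UMI, against 0.752% and 0.826% of T cells. Without thinning the macrophage shares were 68.1% and 49.9%, at median depths of 5596 and 4540 UMIs, and those of T cells were 2.34% and 1.64%. Csf1r was therefore found in a smaller part of the MSA-2 macrophages at equal depth.

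Csf2ra, the ligand-binding chain for GM-CSF, had similar levels in the myeloid gates of both libraries. In the Ly6c2 monocyte gate it was at 147 CPM (125 to 172) and 145 CPM (130 to 161), in the macrophage gate at 93.4 CPM (89.3 to 97.6) and 84.3 CPM (77.1 to 92.0), and in the neutrophil gate at 151 CPM (55.4 to 328) and 149.8 CPM (139 to 161). The log2 ratio in the macrophage gate was -0.15 (-0.29 to -0.01), and with classes taken from clusters it was 0.20. No cluster was named Ly6c2 monocyte, and cluster 6 (94.97% of that gate in the untreated library) and cluster 16 (97.4% in the MSA-2 library) were named macrophage. The value from clusters is thus one for macrophages and Ly6c2 monocytes pooled. It also takes in cluster 4 (376 untreated and 29 MSA-2 cells), named macrophage. That cluster had no macrophage marker but the plasmacytoid DC markers Ly6d, Ccr9 and Siglech among its 10 leading genes. Clusters 8 and 17 were the macrophage clusters with at least 20 gate cells in each library. Csf2ra was at 89.0 CPM (83.6 to 94.6) and 94.6 CPM (63.8 to 135) in cluster 8. In cluster 17 it was at 59.1 CPM (36.6 to 90.4) and 81.6 CPM (68.5 to 96.6). Both ran against the direction of the gate, with overlapping intervals. With TMM factors the log2 ratio was 0.27 in the Ly6c2 monocyte and 1.11 in the neutrophil gate, where total UMIs gave -0.02 and -0.01. The cells that held the chain differed more. Macrophages held 67.8% of Csf2ra UMIs in untreated cells and 22.6% in MSA-2 cells, while neutrophils held 0.207% and 34.2%. Under the stricter cell filter macrophages were the largest holder of Csf2ra and Csf2rb in MSA-2 cells too, with 489 of 1481 and 378 of 1289 UMIs, and with classes taken from clusters it was macrophages pooled with Ly6c2 monocytes.

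Csf2rb, the signaling chain, was at 261 CPM (238 to 285) in untreated DCs and at 253 CPM (223 to 285) in untreated Ly6c2 monocytes. These did not differ beyond counting error. In the Ly6c2 monocyte gate the MSA-2 level was 119 CPM (105 to 134), a log2 ratio of -1.09 (-1.33 to -0.84), or -0.79 with TMM factors. In the macrophage gate Csf2rb was at 101.3 CPM (97.1 to 105.7) and 65.3 CPM (59.0 to 72.2), a log2 ratio of -0.63 (-0.79 to -0.48). The signaling chain was thus lower in both gates of the MSA-2 library, unlike Csf2ra in the monocyte gate; the difference between the chains was not tested.

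Clusters of the macrophage gate differed among themselves in Csf2rb. In the untreated library it was at 151 CPM in cluster 6 and 63.1 CPM in cluster 8. In the MSA-2 library it was at 75.4 CPM in cluster 16, 42.9 CPM in cluster 17 and 56.7 CPM in cluster 8, where the interval of 33.6 to 89.7 CPM included the untreated value. In cluster 17 the untreated level was 56.3 CPM (34.4 to 87.0), which overlaps the MSA-2 interval of 33.5 to 54.2 CPM. A difference was therefore not detectable in cluster 8 or 17, the macrophage clusters with at least 20 gate cells in each library.

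Endothelial cells also carried Csf2rb, at 34.5 CPM (21.1 to 53.2) and 60.6 CPM (45.0 to 79.8), a log2 ratio of 0.81 (0.04 to 1.64), or 0.98 with TMM factors. T cells were at 6.75 and 6.54 CPM and tumor-gate cells at 2.26 and 1.93 CPM. The endothelial level was above both in each library. Neutrophils were at 201 CPM (86.8 to 396) and 129.7 CPM (120 to 140), a log2 ratio of -0.63 (-1.62 to 0.58) that was 0.48 with TMM factors. They held 0.221% of Csf2rb UMIs in untreated cells and 34.6% in MSA-2 cells.

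Cells with UMIs of both GM-CSF receptor chains were sought in each gate. Without thinning, 16.5% of untreated and 8.74% of MSA-2 macrophages had both, as did 22.1% and 13.7% of Ly6c2 monocytes and 4.84% of MSA-2 neutrophils. In untreated DCs the share was 35.4%. After thinning to 1000 UMIs the macrophage shares were 0.839% (0.567% to 1.20%) and 0.596% (0.240% to 1.22%), with overlapping intervals. Those of Ly6c2 monocytes were then 3.40% (1.64% to 6.17%) and 1.65% (0.795% to 3.02%). Untreated DCs were at 1.23% (0.255% to 3.57%) and MSA-2 neutrophils at 1.93% (1.43% to 2.54%). The order of the gates thus changed with thinning. In T cells both chains were found in 0 of 1069 untreated and 1 of 122 MSA-2 cells.

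Csf2rb2 was at 26.7 CPM (24.5 to 29.0) and 21.6 CPM (18.0 to 25.7) in the macrophage gate, a log2 ratio of -0.31 (-0.59 to -0.03). In the Ly6c2 monocyte gate it was at 47.2 CPM (35.0 to 62.2) and 21.3 CPM (15.8 to 28.2), a log2 ratio of -1.15 (-1.75 to -0.55), or -0.85 with TMM factors. In macrophage cluster 8 it was at 17.1 CPM (14.8 to 19.6) and 28.4 CPM (12.97 to 53.9). In macrophage cluster 17 it was at 16.9 CPM (6.199 to 36.8) and 22.4 CPM (15.8 to 30.8). These values run against the direction of the gate, with overlapping intervals. Csf2rb2 made up 19.5% (18.3% to 20.7%) of the UMIs of both beta chains in untreated cells and 17.7% (16.1% to 19.3%) in MSA-2 cells, so the mix was alike. The genes lie 20030 bases apart on chromosome 15, and 91-base stretches found in both make up 5.35% of Csf2rb and 7.92% of Csf2rb2 transcript sequence. Within the last 500 bases, where 3′ reads start, the shares were 3.53% and 0.183%. The part of UMIs assigned to the wrong chain was not tested.

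Csf3r, the G-CSF receptor, was mostly in the macrophage gate of the untreated library, with 76.5% of its UMIs, and in the neutrophil gate of the MSA-2 library, with 60.5%. The macrophage gate held 12.02% in the MSA-2 and the neutrophil gate 2.11% in the untreated library. Under the stricter cell filter the neutrophil share in MSA-2 cells was 22.9%, and the tumor gate was the largest holder. Its level in the macrophage gate was 43.1 CPM (40.3 to 46.0) and 47.4 CPM (42.0 to 53.3), a log2 ratio of 0.14 (-0.06 to 0.33), and it was -0.08 with UMIs per cell in place of CPM and 0.21 (0.05 to 0.37) with classes taken from clusters, which pool macrophages and Ly6c2 monocytes. In cluster 8 it was at 49.9 CPM (45.9 to 54.1) and 78.8 CPM (51.0 to 116), and in cluster 17 at 59.1 CPM (36.6 to 90.4) and 44.8 CPM (35.1 to 56.2). No direction is read for macrophages.

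In the neutrophil gate Csf3r was at 629 CPM (407 to 928), from 25 UMIs in 31 untreated cells, and at 281 CPM (267 to 296) in 2602 MSA-2 cells. The log2 ratio was -1.16 (-1.73 to -0.53), but it was -0.04 with TMM factors, so no direction is read from it. Among MSA-2 neutrophils Csf3r was at 352 CPM (330 to 374) in cluster 23 and 188 CPM (170 to 208) in cluster 22. Most of the 31 untreated cells lay in cluster 22, where Csf3r was at 546 CPM (338 to 835).

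Neutrophils were 0.232% of untreated and 19.5% of MSA-2 cells. The higher Csf3r over all cells thus went with more neutrophil-gate cells. The interval of Csf3r in tumor-gate cells was 0.845 to 1.18 CPM (untreated) and 2.30 to 2.80 CPM (MSA-2), and T cells were at 0.75 and 3.27 CPM, with 147 and 412 UMIs in tumor-gate and 3 and 2 UMIs in T cells. The tumor-gate log2 ratio of 1.34 (1.07 to 1.63) was past 2-fold, at levels that could not be told apart from those of T cells.

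**Figure D4:**
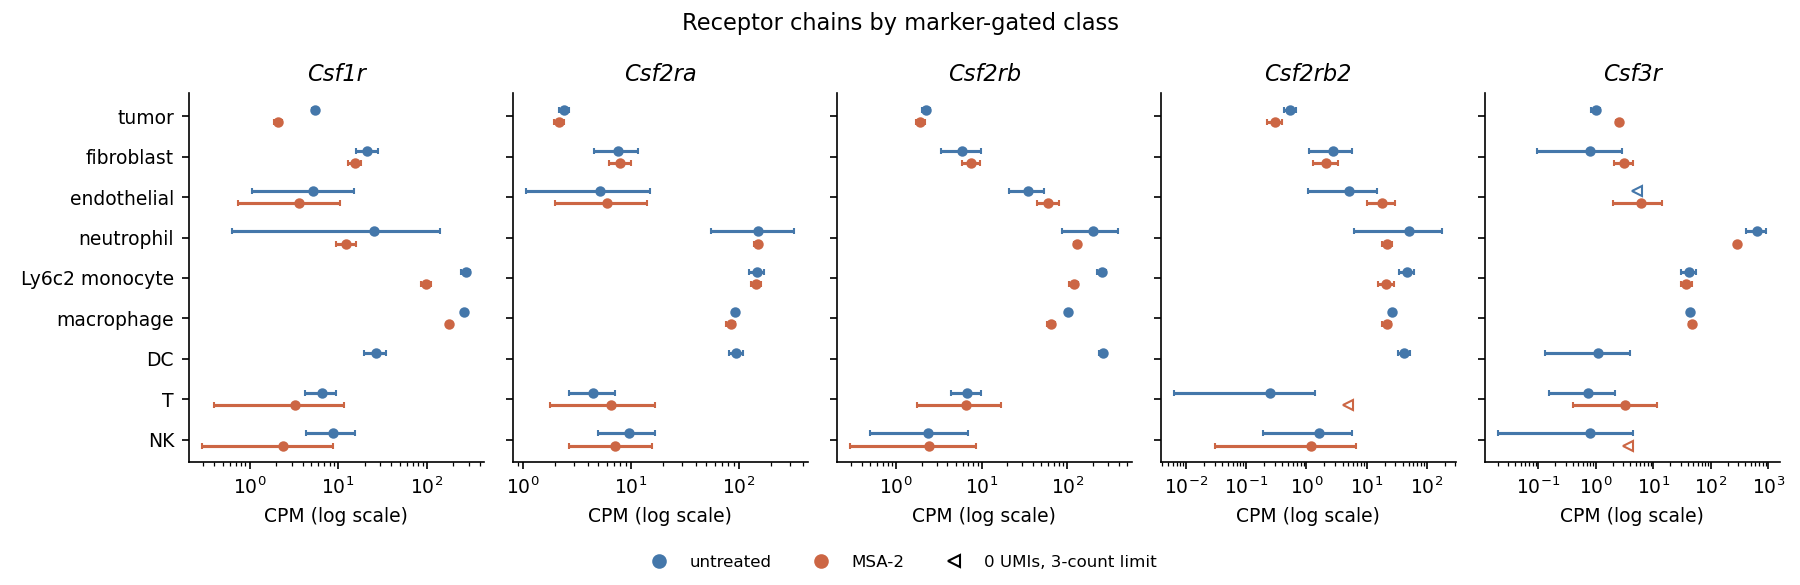
CPM of the 5 receptor chains (log axes) in the drawn classes with at least 20 cells in the library, with exact 95% Poisson intervals for counting error. Pericytes, mast cells, unassigned cells and cells between macrophage and monocyte are not drawn. Open triangles mark 0 UMIs at the level that 3 UMIs would give. Csf1r is lower in MSA-2 than in untreated macrophages (179.9 against 262 CPM) and Ly6c2 monocytes (98.2 against 276 CPM), while Csf2ra differs little.

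**Figure D5:**
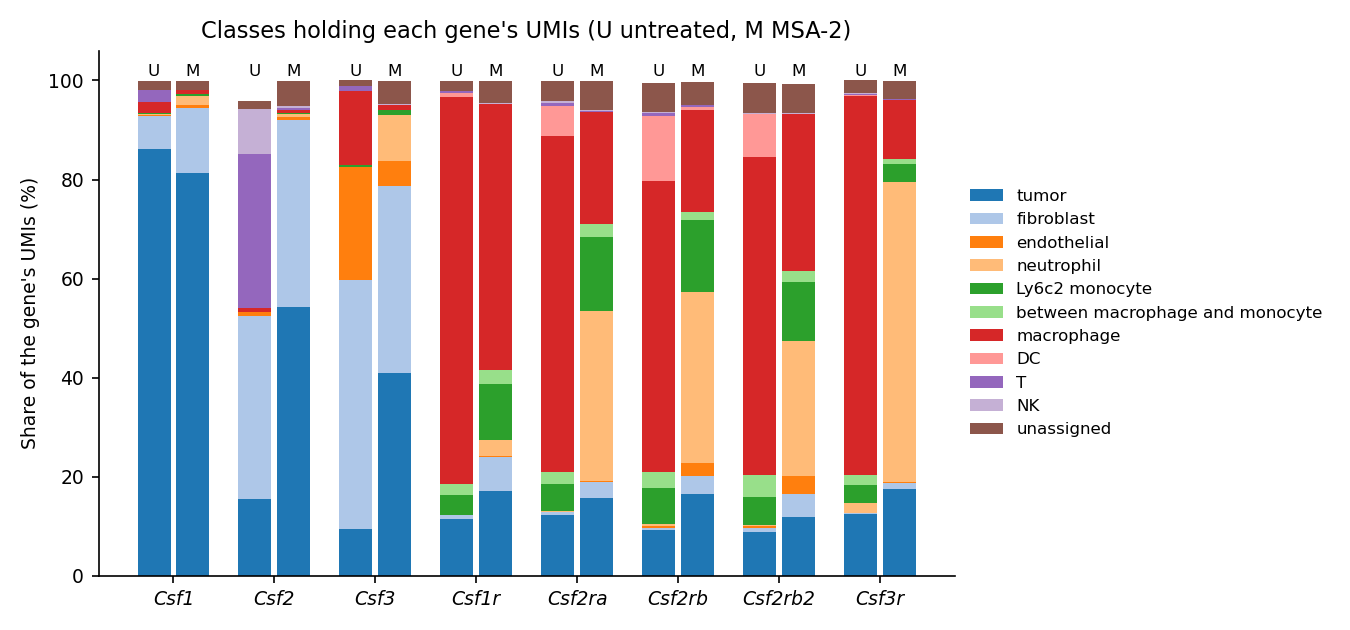
Share of each member's UMIs (percent) held by each class in the untreated (U) and MSA-2 (M) library; pericytes and mast cells are not drawn, so columns can end below 100%. The largest holder differs for Csf3r (macrophages 76.5%, neutrophils 60.5%), and the tumor gate holds 40.9% of Csf3 in MSA-2 against 9.42% in untreated cells.

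Counted within gates, Csf2, Csf3 and Csf3r were at least 2-fold higher and Csf1r at least 2-fold lower in the tumor gate, where 12.8% of 19817 genes were higher and 6.91% lower by as much. In the fibroblast gate Csf2, Csf3 and Csf3r were higher, Csf3r from 2 and 28 UMIs, and no member was lower, with 10.2% of 13506 genes higher and 10.9% lower. In the macrophage gate, Csf1 and Csf3 of 7 members with enough UMIs were higher and none lower, with 9.29% and 9% of 14595 genes. In the Ly6c2 monocyte gate, also with 7 members, Csf1 and Csf3 were higher and Csf1r, Csf2rb and Csf2rb2 lower, with 13.5% and 14.4% of 10453 genes. With TMM factors Csf2rb and Csf2rb2 fell short of 2-fold there. Csf3 was past 2-fold in each of the 4 gates, but its MSA-2 levels in the tumor (22.0 CPM), macrophage (13.4 CPM) and Ly6c2 monocyte gates (37.4 CPM, 29.9 to 46.2) could not be told apart from that of NK cells (21.6 CPM, 12.8 to 34.2). The same held for Csf1 in the macrophage and Ly6c2 monocyte gates, whose intervals are given above. T cells of the MSA-2 library were at 6.54 CPM of Csf3, from 4 UMIs, and the Csf3 intervals of the tumor and Ly6c2 monocyte gates lay above theirs.

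Genes of the same pathways were then counted as lists over all cells, with medians of log2 ratios after 1 CPM was added, beside a median of 0.01 over all 21040 genes. Up to 4 genes past 2-fold with the most UMIs over all cells are named for each list. Il34, Kitl and Il3, the other genes of short counts and those named within gates were chosen after their values were seen. Relatives of the members had a median of -0.22, with 1 gene higher and 1 lower of 8. Kit, the stem cell factor receptor, was at 2.98 and 0.735 CPM, and Il5ra, the IL-5 receptor alpha chain, at 0.0436 and 0.304 CPM. Among relatives that act as ligands, Il34, the other Csf1r ligand, was at 44.1 and 41.0 CPM, and Kitl, the stem cell factor, at 112 and 214 CPM. Il34 was mostly in the tumor gate, at 52.0 and 45.8 CPM, so its level hardly differed where Csf1 was higher. In the fibroblast gate Kitl was at 35.7 and 162 CPM.

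The inducers of the ligands, a list of cytokines known to raise their transcription and of NF-kB pathway genes with the inhibitor gene Nfkbia among them, had a median of 0.91, with 4 genes higher and 1 lower of 11. Il6 was at 8.66 and 77.4 CPM, Il33 at 10.9 and 81.2 CPM, Il1a at 8.27 and 47.2 CPM and Lif at 20.6 and 67.9 CPM. Il6, Il1a, Il33 and Lif are cytokines of the IL-6 and IL-1 families. The lower gene was Il17a, at 0.960 and 0.357 CPM. In the fibroblast gate 5 of 10 were higher (Il1a, Il1b, Il6, Il33 and Tnf) and in the tumor gate 5 of 11 (Il1a, Il6, Il33, Lif and Tnf), with 0 lower in both. In the macrophage gate 6 of 10 were higher and in the Ly6c2 monocyte gate 7 of 10, Nfkbia included, with Il1b the 1 lower gene in both. With the TMM shifts Nfkbia in macrophages and Nfkb1 in monocytes pass 2-fold higher, and Il1b in monocytes falls short. Il6 was past 2-fold in all 4 of these gates, at 195 and 881 CPM in fibroblasts and 3.801 and 136 CPM in macrophages. Il1b was at 2412 and 760 CPM in the macrophage gate.

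The relay list of kinases, STATs and adaptors had a median of -0.29, with 0 higher and 2 lower of 16. Among the lower genes, Pik3cd, a leukocyte PI3-kinase subunit, was at 8.88 and 4.22 CPM. In the macrophage gate none of the 16 passed 2-fold. Elsewhere Fgr and Shc1 were lower in the Ly6c2 monocyte gate, Jak2 was higher in the tumor gate, and in the fibroblast gate Stat5a was higher and Fgr lower, the latter from 8 UMIs in each library. With the TMM shifts of their gates Fgr and Shc1 in monocytes and Jak2 in the tumor gate fall short of 2-fold. Jak2 then passes 2-fold higher in the fibroblast and Ly6c2 monocyte gates. The feedback list had a median of -0.35, with 0 higher and 3 lower of 8. These were the phosphatases Inpp5d (42.3 and 9.95 CPM) and Ptpn6 (24.2 and 6.55 CPM) and Spry1 (12.4 and 3.25 CPM), an inhibitor of growth factor signaling. Within the macrophage gate none of the 8 passed 2-fold, while Inpp5d, Ptpn6 and Spry1 were lower in the tumor gate, Inpp5d and Ptpn6 in the fibroblast gate and Inpp5d in the Ly6c2 monocyte gate. With the TMM shifts of their gates Socs3 in fibroblasts and Socs1 in macrophages pass 2-fold higher. The tumor gate held 1932 of 2280 untreated Spry1 UMIs, and Spry1 was at 13.1 and 2.04 CPM there, a log2 ratio of -2.69.

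Lineage factors, the transcription factors of myeloid fates, had a median of -1.22, with 0 higher and 9 lower of 12. Klf4 was at 996 and 398 CPM, Irf8 at 74.6 and 15.5 CPM and Spi1 at 64.5 and 23.7 CPM. Most Klf4 UMIs were in the tumor gate, with 164089 of 182578 in the untreated library. In the macrophage gate 1 was higher and 3 were lower of 11, namely Cebpe from 12 and 7 UMIs, and Klf4, Cebpa and Batf3. Irf8 was at 271 and 163 CPM within the macrophage gate and at 294 and 100.4 CPM within the Ly6c2 monocyte gate. The list had 1 gene higher and 9 lower of 12 in the tumor gate, and 0 higher and 5 lower of 9 in the Ly6c2 monocyte gate. With the TMM shift of the monocyte gate Cebpb and Batf3 fall short of 2-fold there. The macrophage marker C1qa was lower too in the tumor gate (130.6 and 38.5 CPM) and in T cells (168.6 and 37.6 CPM), and the part of macrophage RNA in the tumor-gate counts of the feedback and lineage lists was not tested.

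The G-CSF target list had a median of 0.36, with 7 higher and 1 lower of 10. Lcn2, an iron-scavenging lipocalin, was at 2.07 and 211 CPM, Mmp8, the neutrophil collagenase, at 0.245 and 16.3 CPM and Bcl3, an NF-kB cofactor, at 19.8 and 41.5 CPM. Cxcr4, which retains neutrophils in marrow, was at 18.1 and 3.36 CPM. Lcn2 was also higher in the fibroblast gate, at 121 and 1719 CPM. Mmp9 of this list is a marker of the neutrophil gate, and the part of the larger neutrophil-gate share in the list's values was not tested.

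The GM-CSF target list had a median of -0.53, with 1 higher and 4 lower of 12. Il1rn, the IL-1 receptor antagonist, was at 18.3 and 55.9 CPM. The chemokines Ccl17 and Ccl22 were at 8.16 and 0.247 CPM and 5.05 and 0.415 CPM, and the lectins Mgl2 and Cd209a at 8.30 and 0.0787 CPM and 0.622 and 0.0105 CPM. These 4 lower genes are all markers of the DC gate, whose cells were 1.82% of untreated and 0.105% of MSA-2 cells. In the macrophage gate 5 were higher and 2, Ccl17 and Mgl2, lower of 11. The higher ones included Ccl24, Il1rn, Inhba and Retnla, with Inhba, an activin subunit, at 33.7 and 131 CPM.

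The M-CSF target list had a median of -0.51, with 3 higher and 4 lower of 12. The complement genes C1qa, C1qb and C1qc were at 884 and 211 CPM, 726 and 164 CPM and 453 and 94.3 CPM, and Adgre1, which encodes F4/80, at 32.8 and 7.26 CPM. The higher genes were the receptor genes Folr2 (2.42 and 5.74 CPM), Lyve1 (0.714 and 1.82 CPM) and Cd163 (0.224 and 0.609 CPM). Of the 12 genes, 6 are markers of the macrophage gate, the 4 lower ones included. Within the macrophage gate the median was 0.72, beside -0.11 over all genes, with 5 higher and 0 lower of 12. Cluster 17, with Folr2 and Mrc1 among its leading genes, held 1.65% of untreated and 21.5% of MSA-2 macrophages, and values within clusters were not computed for the list. Within the gate the higher genes were Cd163, Folr2, Lyve1, Gpnmb and Mertk, with the folate receptor gene Folr2 at 16.9 and 140.2 CPM and Mertk, a receptor for apoptotic cells, at 117 and 335 CPM. Of the 12, 5 had log2 ratios below 0 within this gate, namely C1qa, C1qb, C1qc, Adgre1 and Cd63.

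Genes with the pattern most like each member were sought over 18 sums of 9 classes in both libraries, by Pearson r of log2(CPM + 1). The sums share libraries and depth, and r is a description with no test. Csf3 was most like Rnd1 (0.957), Armcx1 (0.881) and Angptl4 (0.865), Csf2 most like Serpine2 (0.876), Itih5 (0.825) and Fgf2 (0.821), and Csf1 most like Map6 (0.858), Actn1 (0.841) and Sec16b (0.832). Csf1r was most like Fcgr2b (0.979), Lyz2 (0.962) and Tgfbi (0.954), and Csf2ra was like Syk (0.984) and Gm21188 (0.979). Csf2rb was most like Csf2rb2 (0.955), Ets2 (0.938) and Cdkn1a (0.935), Csf2rb2 most like Gab2 (0.962), Csf2rb (0.955) and Sdcbp (0.955), and Csf3r most like Mefv (0.959), Gla (0.957) and Cd33 (0.955). Among the members, receptor chains had r values between 0.631 and 0.955 with each other, while the ligands had 0.371 to 0.525.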

How the data were processed

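The counts are the deposited UMI matrices of both libraries. The authors' notes name Cell Ranger 7.0.0, Seurat 4.3.0 and mm10, the file header names Cell Ranger 7.0.1, and the paper's methods name other versions of both tools. Kept barcodes had 500 or more genes and no more than 20% of UMIs from mitochondrial genes. Doublets called by Scrublet (0.8% per 1000 cells) were removed. Depth was 8291 and 9223 median UMIs. Classes came from marker scores (margin 0.05, at least 3 markers) and Leiden clusters (2000 variable genes, 30 components, resolution 1.5), without the members. Members and lists were chosen with earlier results of these data known. Named genes were the members, up to 4 genes with the most UMIs past 2-fold for each list, and the 3 most alike genes for each member. Some genes under this rule are withheld and not reported here. CPM carry exact Poisson, shares Clopper-Pearson and ratios conditional binomial intervals. Only the ratio interval was tried on simulated counts (95.1% coverage), for genes with at least 50 UMIs over all cells. Those counts were drawn as Poisson, which the interval assumes, so this check does not cover UMIs concentrated in single cells. The other intervals were not tried. Cells were thinned to 1000 UMIs. Alternatives were filters, doublets kept, UMIs per cell, TMM factors, gates, clusters, single cells left out, 1500 UMIs, minimum counts and added CPM. No sequence of chromosome 18 was used. Tools were Python 3.11.15, numpy 2.4.6, scipy 1.17.1, pandas 2.3.3, scanpy 1.11.5, matplotlib 3.10.9, R 4.3.3 and edgeR 4.0.16.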

Additional observations from a re-analysis of the deposited data

Results flagged for a closer look

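Of these results, 6 had opposite signs between gates when scaled by total UMIs. Csf1 had a log2 ratio of MSA-2 over untreated of 1.70 in the endothelial and -2.68 in the neutrophil gate (1.87 and -1.56 with TMM factors). Csf2rb had 0.81 in the endothelial gate and -1.35 in cells between macrophage and monocyte (0.98 and -1.24 with TMM factors). Csf3r had 1.34 in the tumor and -1.16 in the neutrophil gate, but the latter was -0.04 with TMM factors, so no direction is read from it. None of these differences between gates was tested. The neutrophil values rest on 31 untreated cells.

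The other 5 came from data outside the kept cells, namely 347 untreated and 654 MSA-2 barcodes below the cell filter. In the MSA-2 barcodes Csf1 was at 155 CPM, Csf3 at 105 CPM, Csf2ra at 105 CPM, Csf2rb at 98.6 CPM and Csf3r at 115 CPM. In the untreated barcodes Csf1 was at 72.1 CPM, Csf3 at 0 CPM (up to 6.56 CPM allowed), Csf2ra at 45.9 CPM, Csf2rb at 35.0 CPM and Csf3r at 8.74 CPM. The kinds of cells behind these barcodes were not tested.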

How the results depend on the processing

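Over all cells, 35 of 40 values under alternatives were the same, 4 moved and 1 reversed. Csf3r reversed to a log2 ratio of -0.055 under the stricter cell filter, which also gave Csf2ra -0.96, Csf2rb -1.48 and Csf2rb2 -1.53. With UMIs per cell Csf1 was 0.92. Within the leading class, 46 of 55 were the same, 8 moved and 1 reversed. Csf1 was 0.75 with UMIs per cell and 0.63 with TMM factors, Csf1r -0.76 with UMIs per cell and -0.71 with classes from clusters, and Csf2rb -0.85 and -0.34. Csf2ra was -0.37 with UMIs per cell and reversed to 0.20 with classes from clusters. Csf3r in the neutrophil gate was -0.043 with TMM factors. The cause was not tested.

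Alternatives for other gates, chosen after seeing the data, kept 48 of 54 values the same, with 4 moved and 2 reversed: Csf1 in fibroblasts was -0.081 with classes from clusters, and Csf3r in macrophages -0.081 with UMIs per cell. Leaving out clusters, also chosen after seeing the data, moved 2 of 8 values: without cluster 16, Csf1r was -0.68 and Csf2rb -1.13 in macrophages. Under the stricter filter and with classes from clusters, macrophages were the largest holder of Csf2ra and Csf2rb UMIs in the MSA-2 library in place of neutrophils, and under the stricter filter the tumor gate was that of Csf3r UMIs. Classes from clusters pool macrophages with Ly6c2 monocytes and with cluster 4. Leaving out the cell with the most Csf2 or Csf3 UMIs in each library, an alternative added after seeing the data, moved 1 of 6 ratios, Csf3 in fibroblasts to 3.51.

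Medians of the lists with 10 CPM added were -0.086 (Relatives), -0.19 (Relay), -0.20 (Feedback), -0.69 (Lineage factors), 0.80 (Inducers), 0.070 (G-CSF), -0.20 (GM-CSF) and -0.45 (M-CSF). Genes at least 2-fold higher over all cells numbered 2625, 1636 with at least 50 UMIs asked for and 4454 with no minimum, and those lower 1928, 1323 and 3711. In the tumor gate these were 2541, 1460 and 4535 higher and 1370, 844 and 3160 lower, in fibroblasts 1375, 674 and 4608 and 1476, 739 and 3081, in macrophages 1356, 754 and 3159 and 1314, 638 and 4247, and in Ly6c2 monocytes 1406, 717 and 4307 and 1504, 711 and 3422. Of 32 shares of cells with a UMI, 29 moved when cells were not thinned or were thinned to 1500 UMIs, and of 80 shares of a gene's UMIs 34 moved. Gates with few UMIs, such as untreated neutrophils, limit what can be told apart.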
